A study of Mus musculus with 2 samples.

Results

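The genes described here encode the proteins of the cytosolic ribosome. They were taken by name: protein-coding genes called Rpl or Rps with a digit, Rpsa, or Rplp0, Rplp1 or Rplp2, without the Rps6k kinases and without names that mark pseudogenes. The rule found 86 genes among the 16457 annotated genes with reads in either library, spread over 19 chromosomes. Of these, 52 were named for the large subunit and 34 for the small subunit. A core of 77 genes (46 large, 31 small) carried standard names. The other 9 were Rpl3l, Rpl7l1, Rpl10l, Rpl22l1, Rpl36al, Rpl39l, Rps27l, Rps27rt and Rps19bp1, of which the last is a nucleolar protein that binds Rps19 and not a ribosome subunit. Ribosome proteins under other names (Fau and Rack1 among them) fall outside the name rule and are given only for comparison.

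The tissue was whole adrenal gland from male B6CASTF1/J mice, F1 hybrids between B6 and CAST, at an age of 2 months, with no treatment named in the labels, in 1 group of 2 libraries of total RNA read as whole molecules. Biosample labels give the animals different numbers, but the library descriptions repeat the number of replicate 1 and both libraries carry the same donor identifier. Differences between the libraries may therefore be technical, and every test below compares these 2 libraries only. Gene-assigned reads numbered 824225 in replicate 1 and 656826 in replicate 2. Markers fitted the labelled tissue: the cortex genes Cyp11a1, Star, Cyp21a1 and Cyp11b1 took 5.71% and 6.01% of reads in replicates 1 and 2, and the chromaffin genes Th, Chga, Chgb and Dbh took 1.08% and 1.21%.

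Each cytosolic ribosome is built from a large subunit, which joins amino acids and carries the exit tunnel for the new chain, and a small subunit, which decodes the mRNA. Nearly every ribosomal protein is present as a single copy per ribosome, apart from the acidic stalk proteins. Their mRNAs are short, typically begin with a run of pyrimidines (the 5′ terminal oligopyrimidine motif) through which mTOR signalling controls their translation, and have left very many processed pseudogenes, which are reverse-transcribed intronless copies, in mammalian genomes. Introns of these genes often carry small nucleolar RNAs (snoRNAs), which guide the modification of ribosomal RNA.

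The 86 genes took 22916 reads in replicate 1 and 12763 in replicate 2. That was 2.78% of reads in replicate 1 (Wilson 95% interval 2.75 to 2.82%) and 1.94% in replicate 2 (1.91 to 1.98%), a mean of 2.36 ± 0.592% (SD, n = 2). The intervals do not overlap, so the libraries differed by more than counting error. In bulk tissue, fewer cells of a type and less RNA per cell cannot be told apart. Reads were found in both libraries for 83 of the 86 genes. Rpl10l and Rpl39l, paralogs known from testis, had 0 reads in both libraries, which allows up to 3.64 CPM in replicate 1 and 4.57 CPM in replicate 2. Rpl3l, the striated-muscle paralog of Rpl3, had 1 read in replicate 1 and 0 in replicate 2. CPM is the read count scaled to a common total of 1e6 gene-assigned reads per library. Reads are of whole molecules, so CPM was not divided by transcript length. Whether short and long transcripts are read equally well was not tested, which limits comparison of levels between genes.

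Levels of the 77 core genes had a median of 256 CPM, and the lowest stood at 18.1 CPM. The middle of the distribution was narrow, with quartiles of 171 and 342 CPM and 53 of 77 genes within 2-fold of the median. The 10 highest core genes held 32.6% of the reads of all 86 genes in replicate 1 and 33.2% in replicate 2. Large-subunit genes had 14557 reads in replicate 1 against 8229 in replicate 2. Small-subunit genes had 8359 reads in replicate 1 against 4534 in replicate 2. The large-to-small ratio of summed reads was 1.74 in replicate 1 and 1.81 in replicate 2, and per core gene it was 1.18 and 1.23. Median levels were nearly alike, at 224 CPM for large-subunit genes and 236 CPM for small-subunit genes.

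Among the highest was Rplp0, the base of the ribosomal stalk that recruits translation factors, at 1144 CPM in replicate 1 and 994 CPM in replicate 2 (1069 ± 106). Rpl41, the smallest ribosomal protein, had 1290 CPM in replicate 1 and 775 CPM in replicate 2 (1032 ± 364). The spreads of both genes overlap, so their order is not fixed by these libraries. Rpl4, which helps to line the exit tunnel, was nearly alike in the libraries, at 780.1 CPM in replicate 1 and 779.5 CPM in replicate 2. Rpl3, which reaches towards the peptidyl transferase centre, stood at 742 ± 69.5 CPM and Rpl13 at 681 ± 166 CPM.

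Rps14, a protein of the small-subunit platform, was the highest small-subunit gene on reads of the genes themselves, with 736 CPM in replicate 1 and 455 CPM in replicate 2 (596 ± 199). With the near-identical copies added, Rps6 (650.3 ± 168 CPM) and Rps19 (627 ± 199.6 CPM) stood above Rps14 (599 ± 201 CPM) in both libraries, within the spread. Rps28 stood at 457 ± 168 CPM, Rps9 at 379 ± 87.5 CPM and Rps16 at 363 ± 58.5 CPM. On the large-subunit side, Rpl13a averaged 567 ± 99.4 CPM, Rpl35 531 ± 116 CPM, Rpl6 436 ± 78.3 CPM and Rpl19 421 ± 93.2 CPM. The mean ± SD ranges of Rps28, Rpl6, Rpl19, Rps9 and Rps16, in this order, overlap between neighbours.

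Genes whose proteins work together in the ribosome did not all share a level. Of the stalk genes, Rplp1 (331 ± 79.9 CPM) and Rplp2 (336 ± 139 CPM), whose proteins form dimers on Rplp0, were close to each other and lay below Rplp0. Rpl5 and Rpl11 bind 5S rRNA as a unit that can also bind the p53 regulator MDM2. Rpl5 had 257 CPM in replicate 1 and 158 CPM in replicate 2, and Rpl11 had 381 CPM in replicate 1 and 254 CPM in replicate 2. On reads of all forms, Rpl11 was the higher in each library. Of the Rpl5 reads, 63.7% in replicate 1 and 49.0% in replicate 2 were on Rpl5-204, a form without annotated coding sequence described below. The small-subunit gene Rpsa, also known as the laminin receptor gene, had 197 ± 11.5 CPM. Of the X-linked genes, Rps4x had 294 ± 58.9 CPM, Rpl39 256 ± 95.6 CPM and Rpl36a 109 ± 29.4 CPM. Rpl10, also X-linked, had 23.4 ± 2.94 CPM on the gene itself, or 282 ± 40.9 CPM with the near-identical copies described below added.

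**Figure D1:**
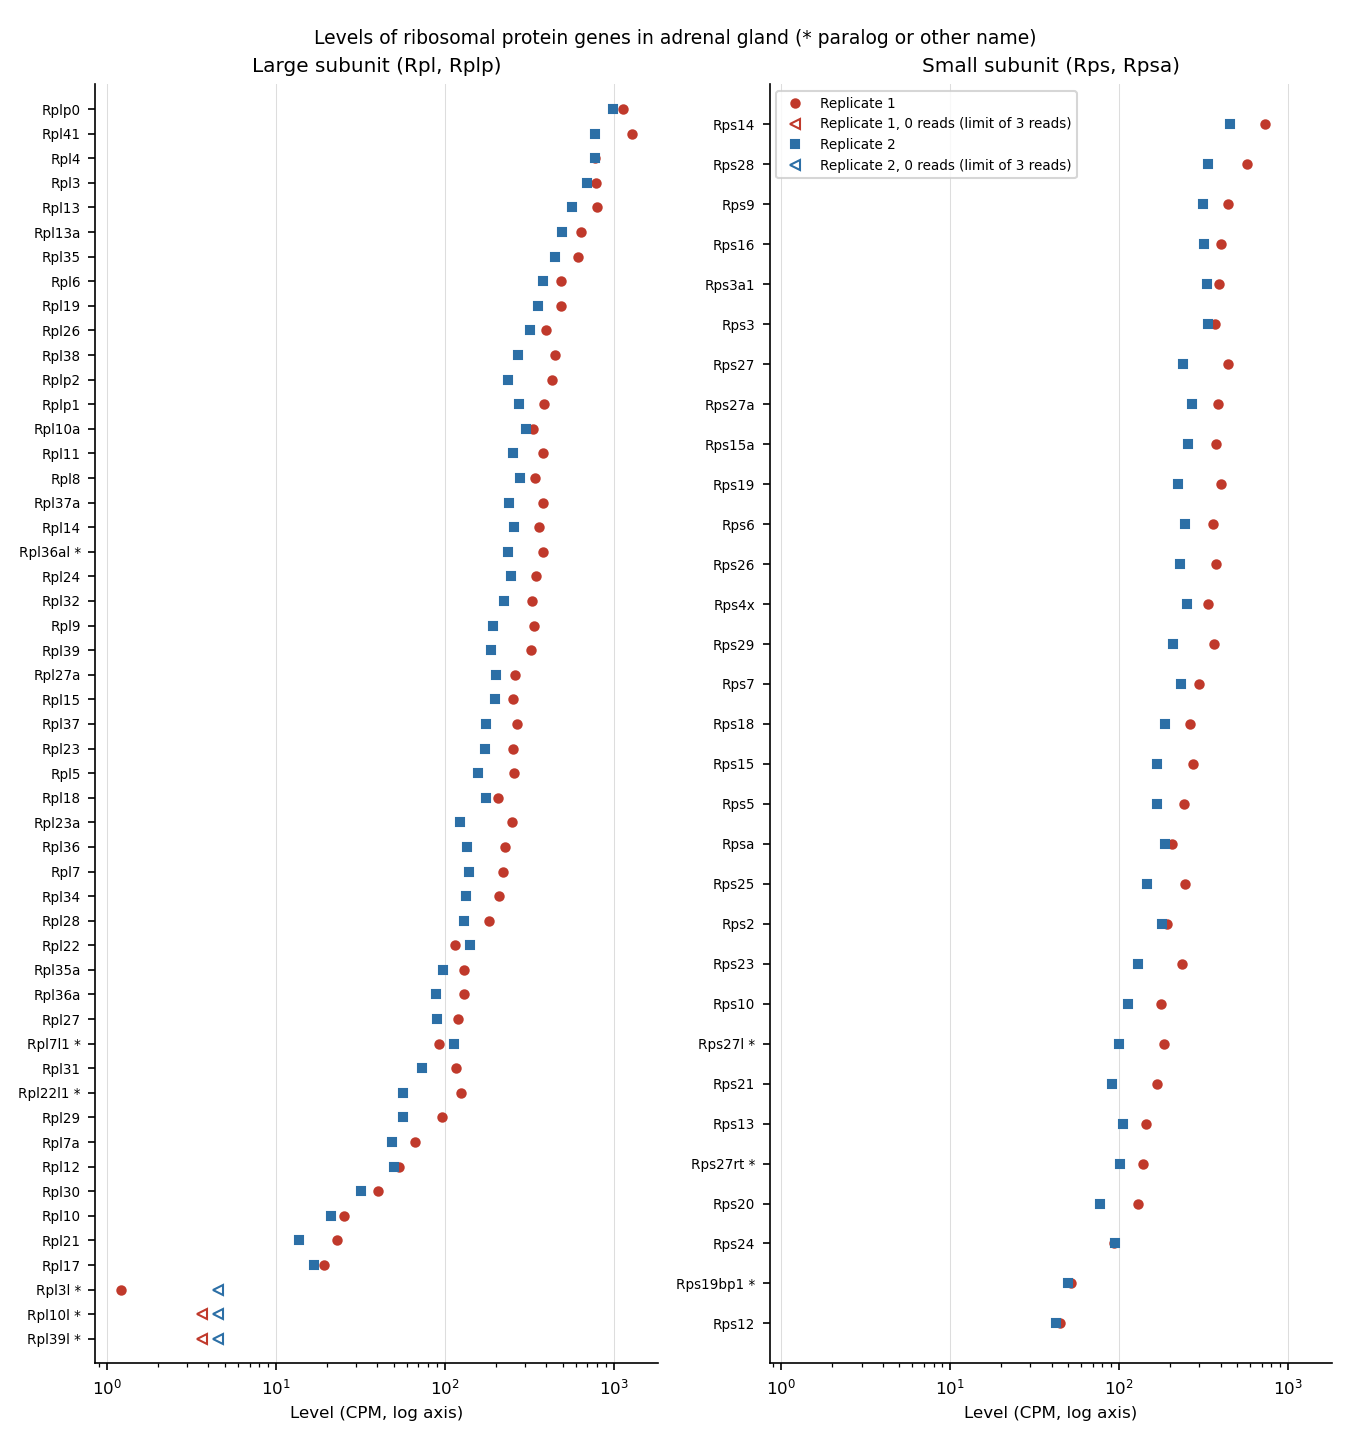
Level of 82 of the 86 ribosomal protein genes in each library on a log axis of CPM, large subunit on the left and small subunit on the right, with open triangles at the limit set by 0 reads. Most genes lie within 2-fold of the core median of 256 CPM, replicate 1 is higher for every plotted gene with reads in both libraries but Rpl22, Rpl7l1 and Rps24, and Rpl3l, Rpl10l and Rpl39l are at or below the limit.

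The 8 paralogs were mostly low, with 762 reads in replicate 1 and 401 in replicate 2 and a median of 96.9 CPM. Rpl36al, an autosomal gene of almost the same protein as the X-linked Rpl36a, was the exception. It had 314 reads in replicate 1 and 156 in replicate 2 (309 ± 101 CPM), against 107 and 58 reads for Rpl36a. Rpl36al was thus the higher gene of the pair in both libraries. Rps27 had 366 reads in replicate 1 and 157 in replicate 2 (342 ± 145 CPM). Its paralog Rps27l, a p53-responsive gene in human cells, had 153 reads in replicate 1 and 66 in replicate 2 (143 ± 60.2 CPM). Rps27rt had 115 reads in replicate 1 and 67 in replicate 2 (121 ± 26.5 CPM). Also among the paralogs were Rpl7l1 at 103 ± 15.5 CPM and Rpl22l1 at 90.6 ± 48.5 CPM, beside Rpl22 at 128 ± 18.6 CPM. Rps19bp1, which is no paralog, had 51.2 ± 1.36 CPM.

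How well reads can tell such relatives apart depends on the sequences. The first 90 coding bases of the Rps27 trio and of the Rpl36a pair are shown here for that reason, taken from the GENCODE transcripts of build mm10. Capitals mark bases that differ from the first sequence of each set. The Rps27 window lies on the minus strand within chr3:90213218-90213615 and spans an intron, that of Rps27l on the plus strand within chr9:66946175-66946914, and that of Rps27rt in a single exon on the minus strand at chr9:114982618-114982707.
Rps27: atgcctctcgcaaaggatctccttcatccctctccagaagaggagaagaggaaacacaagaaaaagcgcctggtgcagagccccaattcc
Rps27l: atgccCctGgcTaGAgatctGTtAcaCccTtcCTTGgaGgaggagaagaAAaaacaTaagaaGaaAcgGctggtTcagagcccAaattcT
Rps27rt: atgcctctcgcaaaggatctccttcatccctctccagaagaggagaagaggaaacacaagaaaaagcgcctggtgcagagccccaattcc

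Over the 252 coding bases, Rps27l differed from Rps27 at 60 (76.2% identity), whereas Rps27rt, an intronless gene, did not differ from Rps27 at any base (100%). By the reference sequence, reads of Rps27 and Rps27rt can therefore be told apart only outside the coding sequence, and their split is uncertain. For the Rpl36a pair the window lies on chrX:134585717-134586164 (plus strand, spanning introns) and chr12:69183047-69183136 (minus strand, single exon).
Rpl36a: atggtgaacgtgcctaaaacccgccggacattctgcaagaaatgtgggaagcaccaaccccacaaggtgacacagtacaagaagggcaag
Rpl36al: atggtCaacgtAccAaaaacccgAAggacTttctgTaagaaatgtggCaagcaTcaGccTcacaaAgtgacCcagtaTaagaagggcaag

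Rpl36al differed from Rpl36a at 39 of 318 coding bases (87.7% identity), 14 of them in this window. By the reference sequence, a whole-molecule read thus has many bases by which the genes can be separated. CAST alleles, which these hybrids also carry, were not examined. Rpl36al, Rpl13, Rpl13a and Rps10 also overlap another annotated coding gene on their own strand, and reads of those loci could be split between the overlapping genes.

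The lowest core genes were Rpl17 with 16 reads in replicate 1 and 11 in replicate 2 (18.1 ± 1.88 CPM), Rpl21 with 19 and 9 (18.4 ± 6.61 CPM), Rpl10 with 21 and 14 (23.4 ± 2.94 CPM), Rpl30 with 33 and 21 (36.005 ± 5.70 CPM) and Rps12 with 37 and 28 (43.8 ± 1.60 CPM). Rpl17 and Rpl10 are needed for every large subunit, Rpl10 being among the last proteins to join it. For 4 of these 5 genes, all but Rps12, most reads of the family lay on intronless copies elsewhere in the genome. Copies were taken as single-exon loci at least 95% identical to a member transcript over at least 60% of the copy and at least 150 bases.

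In all, 157 such copies of 69 ribosomal protein genes had reads, 139 of them annotated as processed pseudogenes and 8 as protein-coding. Their median identity was 99.3%, and 19 were identical to the member transcript over the aligned bases. They took 4756 reads in replicate 1 and 2667 in replicate 2, which is 17.2% and 17.3% of the reads of members and copies together. The share was as large in the shallower library as in the deeper one.

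Copies held more reads than the member in both libraries for 9 genes. For Rpl21 copies had 381 reads in replicate 1 and 187 in replicate 2, which is 95.2% and 95.4% of the family. For Rpl10 they had 235 and 152 reads (91.8% and 91.6%), and for Rpl17 118 and 66 (88.1% and 85.7%). Rpl35a had 77.6% of its family's reads on copies in replicate 1 and 74.1% in replicate 2, and Rpl30 had 74.8% and 64.4%. Rpl27 (63.1% and 54.3%), Rps2 (57.9% and 53.7%), Rps6 (53.0% and 53.6%) and Rpl37 (50.9% and 57.1%) completed the set. With copies added, Rpl35a reached 477 ± 143 CPM and Rpl21 391.9 ± 132 CPM, above the core's upper quartile without copies, and Rpl10 reached 282 ± 40.9 CPM, between its quartiles. Rpl17 (139.9 ± 32.1 CPM) and Rpl30 (124 ± 48.9 CPM) stayed below the lower quartile. Whether the copies are transcribed, or whether reads of the members were placed on them, was not tested, so levels of these 9 genes are uncertain. The same holds for other members with many reads on copies. Rps29 (48.6% in replicate 1 and 50.9% in replicate 2) and Rps19 (47.2% and 53.6%) are examples.

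**Figure D2:**
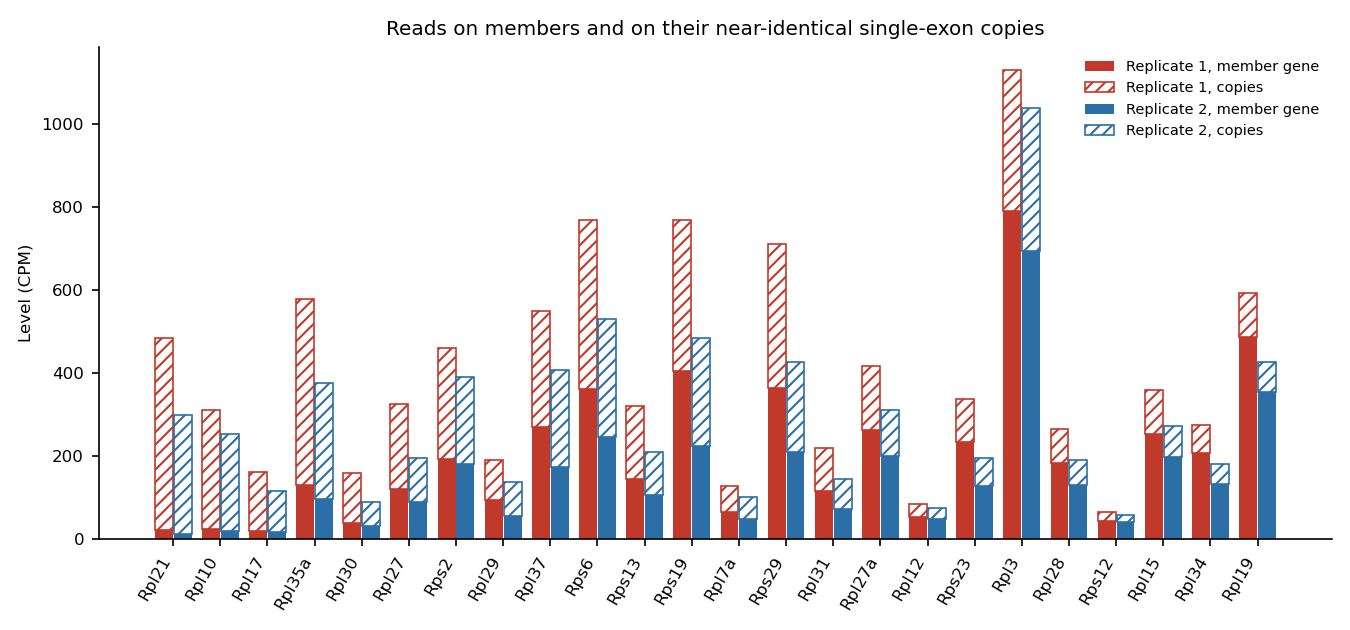
Level in CPM on the member gene (filled) and on its near-identical single-exon copies (hatched, stacked on top) for 24 genes with high copy shares, replicate 1 left of replicate 2. The filled part is small for Rpl21, Rpl10 and Rpl17, whose copies hold 95.2%, 91.8% and 88.1% of the family's reads in replicate 1.

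The most read copies were Gm8172, a copy of Rps6, with 304 reads in replicate 1 and 171 in replicate 2, and Rps19-ps6 with 295 and 169. Gm14303, identical to Rps29 over its 171 bases, had 285 and 143 reads. Rpl10-ps3, annotated as protein-coding and identical to Rpl10 where aligned, had 232 and 152 reads. For 3 further pairs a stretch of coding sequence is printed from the mm10 transcripts to show how few bases separate gene from copy, with capitals at the bases of the copy that differ. The Rpl35a stretch covers coding bases 151 to 210 within chr16:33057529-33058724 (plus strand, spanning an intron), and Gm10243 lies on the plus strand at chr6:48523668-48523727.
Rpl35a: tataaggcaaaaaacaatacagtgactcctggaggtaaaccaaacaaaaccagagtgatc
Gm10243: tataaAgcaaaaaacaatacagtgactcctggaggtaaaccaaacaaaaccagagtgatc

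This was the 1 difference in 330 coding bases. Gm10243 alone had 282 reads in replicate 1 and 127 in replicate 2, more than the 107 and 64 of Rpl35a itself. The stretch of Rpl21, coding bases 331 to 390, lies at chr5:146835652-146835711 (plus strand, exonic), and that of its X-linked copy Rpl21-ps15 at chrX:151215260-151215319 (minus strand).
Rpl21: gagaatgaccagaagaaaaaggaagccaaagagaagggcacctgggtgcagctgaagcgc
Rpl21-ps15: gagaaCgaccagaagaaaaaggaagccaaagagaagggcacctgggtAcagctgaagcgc

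Here 3 of 480 coding bases differed, and the copy had 175 reads in replicate 1 and 93 in replicate 2 against 19 and 9 on Rpl21. For Rpl3, coding bases 31 to 90 lie at chr15:80082496-80082555 (minus strand, exonic) and those of Rpl3-ps1 at chrX:13202602-13202661 (plus strand).
Rpl3: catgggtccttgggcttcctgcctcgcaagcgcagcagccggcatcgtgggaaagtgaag
Rpl3-ps1: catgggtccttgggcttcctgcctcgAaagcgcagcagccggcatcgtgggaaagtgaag

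Only 2 of 1209 coding bases differed in this pair, and Rpl3-ps1 had 275 reads in replicate 1 and 226 in replicate 2. Rpl3 itself kept the larger part of its family, with 652 and 455 reads. The differences given for these pairs are between reference sequences. CAST alleles were not examined, so the bases that separate gene from copy can differ in these hybrids.

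Most reads of these genes followed annotated transcripts. TALON, the program that built the transcript models, sorts each read as annotated, as an incomplete splice match (part of an annotated intron chain), as a new combination of known splice sites, as holding a new splice site, or as having no compatible splice pattern. Annotated transcripts took 89.5% of the members' reads in replicate 1 and 91.0% in replicate 2 (90.2 ± 1.10%), against 79.1% and 78.7% for all other annotated genes. Incomplete splice matches were 8.40% in replicate 1 and 6.95% in replicate 2, against 8.41% and 8.35% for other genes. Read gene by gene, the 80 members with at least 20 reads in each library had a median of 2.86% in this class and 95.1% in the annotated class, so the sum is weighted towards a few genes. New combinations (0.480% and 0.619%), new splice sites (1.06% and 1.03%) and incompatible patterns (0.589% and 0.392%) were each below the values of other genes, which ran from 3.41% to 5.43%.

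Most reads were on models with a complete annotated coding sequence, where any annotated form of it was accepted. In replicate 1, 89.3% of the members' reads, and in replicate 2 91.1%, belonged to a model that spans a complete annotated coding sequence of the gene (90.2 ± 1.31%), against 82.3% and 82.5% for other protein-coding genes. Among the 80 members with at least 20 reads in each library, 64 reached 90%, with a median of 94.6%. Of these 80, 2 fell below 50%, Rpl5 among them, with 32.1% in replicate 1 and 46.2% in replicate 2. Model starts and ends of annotated transcripts are those of the annotation, so these shares speak of intron chains and not of the last base read.

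Among the incomplete reads of all members, those that keep the 3′ end were far more frequent (7.51% of members' reads in replicate 1 and 6.15% in replicate 2) than those that keep the 5′ end (0.0916% and 0.149%). The deposited models give 1 start per model and not per read, so the shares that follow are of reads on models. Of the reads of these 3′ fragments, 79.1% in replicate 1 and 72.2% in replicate 2 were on models that begin at the first base of an annotated exon. Models that begin 1 to 10 bases upstream of the annotated exon held 0.988% and 0.127%, those that begin more than 10 bases upstream, into or across the preceding intron, held 15.1% and 22.8%, and those that begin inside an exon 4.76% and 4.84%. The most read model of the upstream kind was in Rpl6. It begins 860 bases upstream, its first exon of 1118 bases contains the snoRNA gene Gm26205, and it had 44 reads in replicate 1 and 33 in replicate 2. A model of Rplp0 that begins 41 bases upstream (26 and 18 reads) contained no annotated snoRNA gene. In Rpl22, models of a single intron chain began 1 base upstream in replicate 1 (16 reads) and 1614 bases upstream in replicate 2 (9 reads). The 2-exon fragment of Rps21 (29 and 7) began at an annotated exon. Whether such molecules existed in the tissue or arose during library preparation was not tested.

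Rpl5 reads were split in another way. Its most read form was Rpl5-204, annotated as a retained intron with no coding sequence, with 135 reads in replicate 1 and 51 in replicate 2 (63.7% and 49.0%). The coding form Rpl5-201 had 68 and 48 reads. As annotated, Rpl5-204 starts 603 bases before exon 6 of the coding form, within the intron that contains the snoRNA gene Snord21 (chr5:107904555-107904648), and its first exon at chr5:107904114-107904894 holds that gene. Its start is that of the annotation, and its 3 exons give the intron chain by which reads are placed on it. Whether these reads hold the intron bases or Snord21, or begin further downstream, was not tested. The share of Rpl5-204 did not differ between libraries after adjustment (two-sided Fisher's exact test, Benjamini-Hochberg adjusted p = 0.514).

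**Figure D3:**
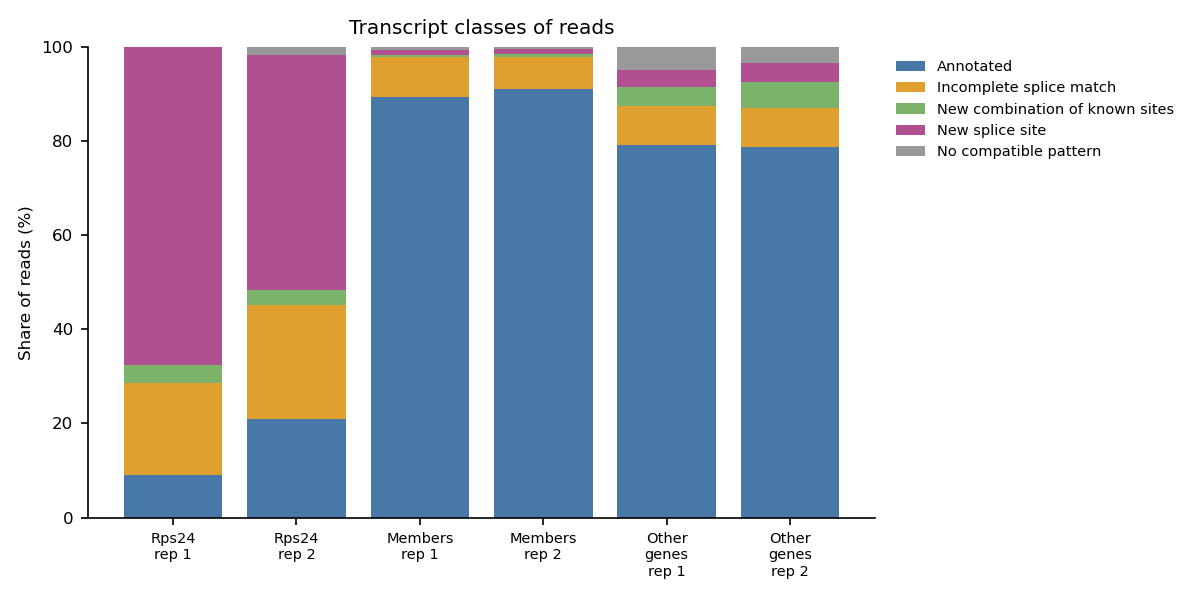
Share of reads in each TALON class for Rps24, all members and all other annotated genes, each in replicate 1 and replicate 2. Rps24 is mostly new splice site, and the members as a whole hold 89.5% and 91.0% annotated reads against 79.1% and 78.7% in other genes.

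Rps24, a small-subunit protein mutated in some patients with Diamond-Blackfan anaemia, had the smallest share of annotated reads among the 80 members. It had 77 reads in replicate 1 and 62 in replicate 2, of which 9.09% and 20.97% were on annotated transcripts. A 6-exon model that is absent from the annotation had 51 and 31 reads (66.2% and 50%). It differs by the length of exon 5, at chr14:24494052-24494087 on the plus strand: 36 bases, against 18 bases in the annotated exon that ends at chr14:24494069. The mm10 sequence at chr14:24494064-24494093 is printed with the 18 added bases in capitals, after the last bases of the annotated exon and before the intron.
Rps24 exon end: tagcagGTACTGCCATTGGGCACGgtgtgg

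Both exon ends are followed by GT, as at most splice donors. The added bases lie after the stop codon, as the join of exon 4 with this exon shows. It runs from chr14:24493470 to chr14:24494057 across the intron, with capitals at the bases given by the short exon, which read as AAA and the stop TGA.
Rps24 coding end: gccaatgttggtgctggcaaaaagAAATGA

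The new model therefore holds the whole coding sequence. By the measure above, 98.7% of Rps24 reads in replicate 1 and 90.3% in replicate 2 were on models that span a complete annotated coding sequence. That measure accepts any annotated coding sequence of the gene, also a shorter form. In replicate 1, 76 of 77 reads were counted, although 15 were incomplete splice matches. Some counted reads can therefore lack part of the sequence held by the new model.

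Few other new splice forms recurred. Counting models with 5 reads or more per library, members had 26 recurrent incomplete splice matches, 3 new combinations and 3 models with new splice sites, the last 2 kinds in 6 genes. Apart from Rps24, the models with new sites were in Rpl7l1 (26 reads in replicate 1 and 21 in replicate 2) and in Rplp2 (11 and 5). New combinations of known sites were found in Rps14 (18 and 10), Rps19 (19 and 5) and Rpl3 (5 and 5). Recurrent incomplete splice matches besides those above included Rps4x (15 and 13).

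In most members a single form held the bulk of the reads. The most read transcript held at least 90% of the reads in 39 of 80 members (48.8%), against 23.9% of 5250 other genes, and for annotated transcripts alone the number was also 39. The median share of the most read transcript was 89.95% for members and 78.9% for other genes. The share of the most read transcript was under 80% in 23 members. Besides Rpl5 and Rps24, these included Rpl31, Rpl38, Rpl30, Rpl7l1, Rpl35a, Rpl22l1, Rpl34, Rps28, Rpl8, Rpl7a, Rpl15, Rpl29, Rps21, Rpsa, Rpl28, Rpl27, Rpl18, Rps19, Rps15 and Rpl22. Between libraries, Fisher's exact test called 0 of 80 members at an adjusted p below 0.05 and 10 percentage points, with 5 members at an unadjusted p under 0.05. The background of calls over all 5330 genes was 0.394%.

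A second annotated form with at least 10% of the reads was found in 15 members, giving 16 pairs of forms. In 13 pairs the coding sequence was the same, and 12 of these differed in introns of the 5′ untranslated region and 1, in Rps28, in the 3′ untranslated region. A different coding sequence was found in 1 pair, in Rpl22l1. In the remaining 2 pairs, that of Rpl5 among them, a form had no annotated coding sequence. Most of these pairs therefore encode the same protein.

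Rpl38, a large-subunit protein needed for translation of Hox mRNAs in mouse embryos, was split between 2 forms. Rpl38-204 had 204 reads in replicate 1 and 88 in replicate 2, and Rpl38-201 had 138 and 73. The forms use different donors at the end of exon 1, shown here at chr11:114668604-114668633 (mm10, plus strand, 5′ untranslated) with the 17 bases kept only by Rpl38-201 in capitals.
Rpl38 exon 1 donors: atcgctGTGAGTGTGCTGGGCAGgtgggga

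Rps28 differed after the stop codon. Rps28-205 had 334 reads in replicate 1 and 158 in replicate 2, and Rps28-201 had 128 and 59. They differ by 4 bases of exon 3, in capitals, at chr17:33823181-33823210 (mm10, minus strand, 3′ untranslated).
Rps28 exon 3 donors: taatcttgcagctgGTGGgtaagtggcaac

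In Rpl22l1, the paralog of Rpl22, the choice changes the protein. Rpl22l1-206 had 67 reads in replicate 1 and 25 in replicate 2, and Rpl22l1-201 had 32 and 10. The forms use different acceptors of exon 2, and Rpl22l1-206 leaves out 3 coding bases, a codon's length, shown in capitals at chr3:28806488-28806517 (mm10, plus strand).
Rpl22l1 exon 2 acceptors: aattatgtctagCAGaaagacaagaagcct

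Among genes led by an annotated form, Rpl31 had the lowest share for it: Rpl31-201 had 39 reads in replicate 1 and 18 in replicate 2, Rpl31-202 had 33 and 17, and Rpl31-203 had 13 and 12, with a common coding sequence. Rpl34-202 had 129 and 51 reads, and Rpl34-201 had 28 and 24. Rpl8-201 had 200 and 131 reads, and Rpl8-202 had 59 and 41. In Rpl22 the leading form, Rpl22-205 (72 and 78 reads), is annotated without a coding sequence but spans that of Rpl22-201.

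**Figure D4:**
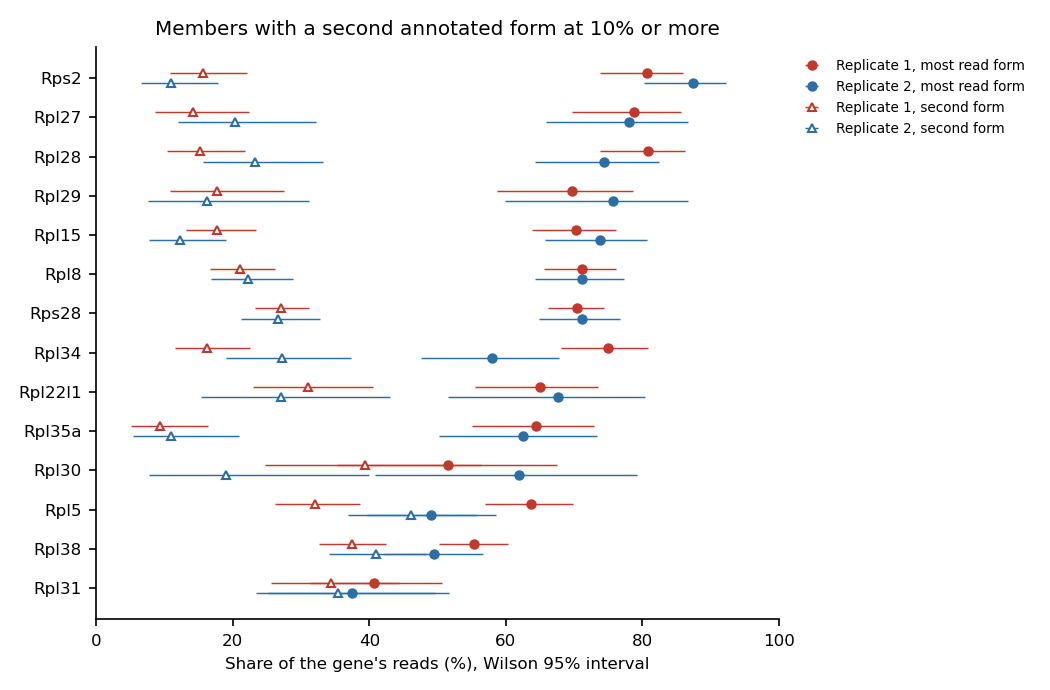
Share of the gene's reads on the most read form (circles) and on the second annotated form (triangles) in each library for 14 of the 15 members with a second form at 10% or more, with Wilson 95% intervals that cover counting error only. The intervals of the forms overlap in both libraries in Rpl31, in replicate 1 alone in Rpl30, and in replicate 2 alone in Rpl38 and Rpl5.

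Whole internal exons were nearly always held or nearly always skipped. Of 278 annotated internal exons with at least 20 reads that hold or skip them in each library, in 77 members, 265 were included in over 95% of such reads and 13 in under 5%. None lay between these bounds in the mean of both libraries. Reads that use another donor or acceptor of the same exon count as neither. The choices of site in Rps24, Rpl22l1 and Rps28 described above are therefore outside this count. Annotated reads fell on transcripts of the type nonsense-mediated decay in 0.0537% of cases in replicate 1 and 0.0517% in replicate 2, against 0.277% and 0.323% in other protein-coding genes. Retained-intron transcripts took 1.51% and 1.45%, against 0.847% and 0.837% in other protein-coding genes. Rpl5-204, whose intron bases were not checked in the reads, made up 135 of 309 such reads in replicate 1 and 51 of 168 in replicate 2.

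Some features of position and of start sequence, which the name rule did not use, were held by a larger share of members than of other genes. These shares are given as a description, with no test. In 30 of 86 members (34.9%) the gene span held at least 1 annotated snoRNA or small Cajal body RNA gene on the same strand, 58 in all, against 187 of 12011 other protein-coding genes with reads in both libraries (1.56%). Rpl4 held 5 and Rpl13a held 4. RefSeq windows of 250 bases before to 50 after the annotated start were matched for 66 of the 86 members. A stretch of at least 5 pyrimidines, counted from a C within 5 bases of the start whether or not pyrimidines precede that C, was found in 30 members (45.5%), against 21.1% of 26959 other genes. A stretch of at least 7 was found in 23 members (34.8%), against 7.58%. Here and for the motifs below, the other genes are all those with a window. They were not filtered by reads or gene type, unlike the 12011 genes above, so these contrasts also hold differences in expression and gene type.

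Such starts are shown for 6 genes named above, or a paralog's parent, as 12 bases before to 18 after the RefSeq start (GRCm38.p6, the assembly that mm10 names), with the whole unbroken pyrimidine run in capitals. Rpl13a is at chr7:45128728-45128757 and Rpl35 at chr2:39005114-39005143, both on the minus strand. Rpl19 is at chr11:98026912-98026941, Rps9 at chr7:3704029-3704058 and Rpl38 at chr11:114668568-114668597, on the plus strand, and Rps27 at chr3:90213631-90213660 on the minus strand.
Rpl13a: accctgcgacaagaCCTCCTCCTTTCCCag
Rpl35: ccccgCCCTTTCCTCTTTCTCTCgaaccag
Rpl19: gCTCTCCCCTTCgcagataatgggcggagc
Rps9: gccttgTCTCTCTTTgtctcgggcctgagt
Rpl38: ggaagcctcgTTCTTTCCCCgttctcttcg
Rps27: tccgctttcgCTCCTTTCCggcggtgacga

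The runs shown range from 9 bases in Rps9 and Rps27 to 18 in Rpl35. In Rpl19 the run has 11 bases, of which the last 5 were counted. Over both strands of the 300-base windows, CCGGAAG, the core letters of sites for ETS factors, was found in 26 members (39.4%) against 9.86% of other genes. AAGATGG, the core of YY1 sites, was found in 10 members (15.2%) against 7.26%, and GGGCGG, the GC box of Sp1, in 41 (62.1%) against 38.1%. TATAAA, the letters of a TATA box, was found in 7 (10.6%) against 15.7%. The last 3 letters of CCGGAAG are the first 3 of AAGATGG, so matches of these motifs can overlap, and a match is a description of the window only.

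The libraries themselves differed in the level of these genes. On TMM-scaled CPM with 1 CPM added, the log2 ratio of replicate 1 over replicate 2 had a median of 0.61 over the 83 members tested (10th to 90th percentile 0.22 to 0.93), against -0.01 over all 8063 genes tested. It was above 0 in 81 members and below 0 in Rpl22 (-0.20) and Rpl7l1 (-0.21), while 49.1% of all genes were above 0. The 3 members not tested had fewer than 20 reads in sum. The ratios scattered more than counting error alone gives, with a chi-square of 3.50 per degree of freedom over 82 degrees of freedom.

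A two-sided exact binomial test with Benjamini-Hochberg adjustment over all 8063 genes called 3 members higher in replicate 1 (a 2-fold ratio or more with an adjusted p below 0.05), against 2.34% of all genes. It called 0 lower, against 1.07% of all genes. Among the 3 were the exit-tunnel gene Rpl23a (207 reads in replicate 1 and 81 in replicate 2, log2 ratio 1.12) and Rpl22l1 (103 and 37 reads, 1.23). By the adjusted p alone (below 0.05), 62 members were higher in replicate 1, against 7.52% of all genes, and 0 were lower, against 3.57%.

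This difference moved with transcript length. The members' most read annotated transcripts had a median of 830 bases, against 2581 over all genes tested, and 59 members were under 1000 bases. The 701 other genes under 1000 bases had a median log2 ratio of 0.62, with 88.9% above 0. In bins of length, members and other genes had medians of 0.83 and 0.68 under 500 bases (12 and 110 genes), 0.71 and 0.69 from 500 to 700 bases (20 and 175), and 0.55 and 0.57 from 700 to 1000 bases (27 and 416). At 1000 bases or more, 24 members had a median of 0.47 and 7113 other genes had -0.06. This last bin has no upper bound, so members and other genes in it were not matched for length.

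With a smooth trend on length over all genes removed, the members' median was 0.056, with 49 members above 0 and 34 below. The scatter among members did not shrink, with an SD of 0.28 before and 0.30 after. By the adjusted p alone, 5 members were then higher in replicate 1 (Rplp2, Rps15a, Rps25 and Rps20 among them), against 3.78% of all genes. Only Rpl22, which is dispensable in most mouse tissues, was lower (-0.90), against 2.1% of all genes. With the 2-fold ratio added, only Rps20 was called (1.00, exact binomial test, adjusted p = 0.0011), against 1.65% of all genes in either direction. None of the 3 genes called before kept its call. The trend was read at the annotated length of the most read transcript, which in Rps20 is 3706 bases and in Rps15a 5179 bases, far from the members' median.

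**Figure D5:**
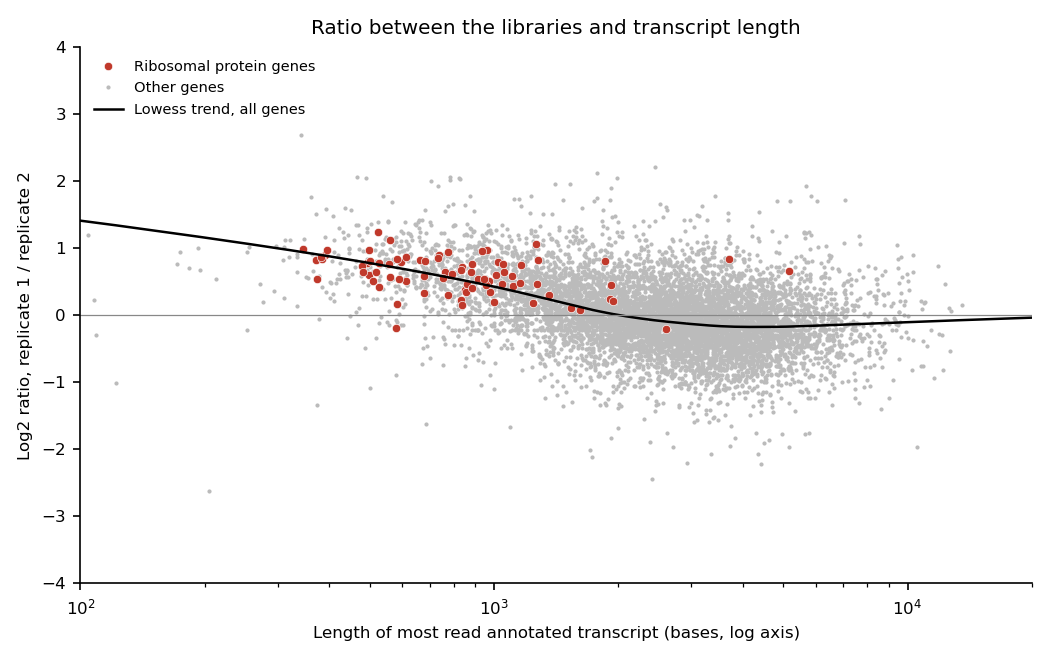
Log2 ratio of replicate 1 over replicate 2 against the length of the most read annotated transcript on a log axis, with ribosomal protein genes in red, other tested genes in grey and the lowess trend over all genes as a line. The ribosomal protein genes had a median of 0.61 before and 0.056 after the trend is removed. Their SD was 0.28 before and 0.30 after. The 24 members of 1000 bases or more had a median of 0.47 before removal, against -0.06 for other genes of 1000 bases or more. This bin has no upper bound, so lengths within it were not matched.

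Other genes of the translation machinery were read beside them. Fau, which encodes a ribosomal protein fused to a ubiquitin-like protein, had 270 reads in replicate 1 against 148 in replicate 2 (log2 ratio 0.64), and Rack1, a scaffold protein on the small subunit, had 166 against 96 (0.56). Both passed the adjusted p alone as higher, as did 7.52% of all genes. The 78 genes of the mitochondrial ribosome had a median of 0.52, or 0.23 with the length trend removed, and 71 were above 0. Of them, 9 were called higher, against 2.34% of all genes, and 0 lower. They took 0.793% of reads in replicate 1 and 0.591% in replicate 2. Of 15 translation factors and other genes with pyrimidine starts, 10 were above 0 with a median of 0.34, or 0.042 with the length trend removed. By the adjusted p alone 4 were higher, against 7.52% of all genes, and 2 were lower, against 3.57%. Eef2, the elongation factor for translocation, had 1096 reads in replicate 1 and 1192 in replicate 2 (-0.35). Of 22 ribosome biogenesis genes tested, whose most read transcripts had a median of 3150 bases, 7 were above 0 with a median of -0.11, or -0.036 with the trend removed, and 0 passed in either direction.

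Within the members, the 19 genes whose human counterparts are mutated in Diamond-Blackfan anaemia had a median of 0.68, with 19 above 0 and 15 past the adjusted p alone as higher. The 9 exit-tunnel genes had a median of 0.55, with 8 above 0 and 6 past it. Over all 83 members tested the median was 0.61 and 62 passed, and over all genes 7.52% passed. With the length trend removed, the medians were 0.049 for the Diamond-Blackfan genes and -0.028 for the exit-tunnel genes, against 0.056 for all members.

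Markers of other cell types also moved between the libraries. All 6 fat-cell markers were higher in replicate 1, with 1.77% of reads in replicate 1 and 0.985% in replicate 2 and a median log2 ratio of 1.44, or 1.06 with the length trend removed. Red blood cell markers, 5 of 5 higher, took 0.195% of reads in replicate 1 and 0.0819% in replicate 2 (median ratio on the log2 scale 1.39, or 0.74 with the length trend removed). Of the lymphocyte and macrophage markers, Cd74 and Lyz2 had reads and Ptprc, Cd3e and Cd79a had 0. The part of fat cells, red cells or transcript length in the members' ratio was not tested.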

How the data were processed

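For each library, the authors deposited whole-number, unnormalized read counts for every transcript model. Reads were aligned to mm10 and annotated with GENCODE M21, per the deposited notes, and the models are TALON models, as the deposited annotation records. Platform, aligner and versions were not given in the sources used here. Counts were summed per gene over all classes, and ERCC spike-in reads (5731 in replicate 1 and 5156 in replicate 2) were left out of totals. Levels are given in CPM of these totals (mean ± SD, n = 2). Ratios used TMM scaling (edgeR 4.0.16, R 4.3.3) and 1 CPM added. With 1 group of 2 libraries, the quasi-likelihood test of edgeR could not be fitted, so an exact binomial test was used for genes whose reads summed to 20 or more. Transcript usage was compared, given 20 reads or more per library, by Fisher's exact test. Both tests were tried on simulated data. The length trend is a lowess fit with span 0.5 (statsmodels 0.14.6). Intervals are Wilson 95% and floors 3 reads, and they cover counting error only. Python 3.11.15, numpy 2.4.6, scipy 1.17.1, pandas 2.3.3 and matplotlib 3.10.9 were used. New models were matched between libraries by intron chain.

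The members and lists were chosen with earlier results of these data known. Genes named are the 15 highest members, the 5 lowest core members, paralogs, called members, members whose leading form holds under 80% of reads, the 10 most read new models and the stalk, 5S, Rpsa and X-linked genes. A few genes picked in this way are not reported here. Copies of members, overlapping genes and genes named for them were chosen after values were seen. Alternatives were other scalings (DESeq2 1.42.0 size factors among them), filters, classes, added CPM, copies and each library left out.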

Additional observations from a re-analysis of the deposited data

How the results depend on the processing

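No paired analysis was possible because the series has 1 group. The members' median log2 ratio stayed between 0.51 and 0.68 under every alternative but the length trend, which took it to 0.056. With the trend removed, 1 member was called, against 1.65% of all genes. By an adjusted p under 0.05 alone 6 members passed, against 3.78% of all genes higher in replicate 1 and 2.1% lower. Scaling by library totals put the median of all genes at -0.11. Calls were 9 with spike-in totals and 2 to 4 under the other alternatives. The share of calls over all genes was not taken under these settings, so these counts cannot be read as a result about the members. The large-to-small ratio, 1.78 in the mean, was 1.68 on annotated transcripts and 0.929 as a ratio of medians. As the median share per gene, annotated reads were 95.1%, incomplete splice matches 2.78%, new combinations 0%, new sites 0.522% and incompatible patterns 0%. With annotated reads alone as the denominator, 61 members reached 90%. The causes of these shifts were not tested.

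With either library left out, the members' share ran from 1.94% to 2.78% and the large-to-small ratio from 1.74 to 1.81. Annotated reads ran from 89.5% to 91.0%, incomplete splice matches from 6.95% to 8.40%, new combinations from 0.480% to 0.619%, new sites from 1.03% to 1.06% and incompatible patterns from 0.392% to 0.589%. Members at 90% numbered 40 to 41, and exons between the bounds 0. Of 54 named levels, counting annotated transcripts alone moved 20 by more than the spread and adding copies, an alternative added after seeing the data, moved 16. With copies the members' share was 2.85%. Depth limits genes such as Rpl17 and Rpl21, whose shares of forms rest on fewer than 20 reads.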
